A study of Mus musculus with 61 samples.

Results

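The transcripts of the NF-kappaB subunits and of the IkappaB proteins that bind them were followed in cultured mouse hepatocytes that carry or lack the cytokine receptor subunit gp130. The group comprised 10 listed genes, chosen by symbol through the array's probe annotation: the nuclear IkappaB proteins Nfkbiz and Bcl3, the classical inhibitors Nfkbia, Nfkbib and Nfkbie, and the subunits Nfkb1, Nfkb2, Rela, Relb and Rel. Of these, 9 genes had a probe, 11 probes in all, and all 11 passed the filter on detection that kept 19543 probes of 12157 genes. Nfkb1 is not analysed here. In gp130- mice, a Cre transgene driven by the albumin promoter removed the floxed gp130 gene (Il6st) from hepatocytes, and the gp130flox littermates carried the same floxed allele without Cre, both on a C57BL/6 background. Isolated hepatocytes were plated on collagen, starved of serum overnight and given 200 ng/mL IL-6, and RNA was hybridized at 0, 1, 3, 6 and 12 h to 28 arrays from gp130- cells (6, 6, 5, 5 and 6 at the 5 times) and 33 arrays from gp130flox cells (7, 6, 6, 7 and 7). No array after 0 h came from cells without IL-6, so the effect of IL-6 and that of time in culture cannot be told apart. Levels are log2 signals after background correction and quantile normalization, and a difference is gp130- minus gp130flox, or a later time minus 0 h. A probe was called when its limma p, adjusted by Benjamini-Hochberg over all 19543 probes, was under 0.05 and its fold over 1.5.

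NF-kappaB is a family of dimeric transcription factors that wait in the cytoplasm, held there by IkappaB proteins, until IkappaB kinase marks the inhibitor for destruction and the dimer enters the nucleus. Nfkbiz (IkappaB-zeta) and Bcl3 are unusual members of the IkappaB family, because they work inside the nucleus and modify what promoter-bound p50 or p52 dimers do. IL-6 does not act through this pathway but through gp130, Janus kinases and STAT3, although both pathways feed the hepatic acute phase response.

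Promoter sequences of RefSeq (build GRCm38.p6) show which members hold the letters of a kappaB site, the element that NF-kappaB dimers read, or of a STAT site close to their start. A window runs from 250 bases before to 50 bases after the annotated start, and 7 of the 10 listed genes had at least 1 window, 9 windows in all. Nfkbiz, Relb and Nfkb1 are named only. The sites were searched on both strands as the kappaB consensus and as TTCNNNGAA for STAT, and 4.51% and 8.3% of 32851 promoter windows held at least 1 match. Sequences are shown for Bcl3, the nuclear member with a window that differed between the genotypes, for Nfkbia, the classical inhibitor known as an NF-kappaB target, and for Nfkb2, the subunit whose window holds both kinds of site. The matched letters are in capitals.
Bcl3 (chr7:19822706-19823005, minus strand): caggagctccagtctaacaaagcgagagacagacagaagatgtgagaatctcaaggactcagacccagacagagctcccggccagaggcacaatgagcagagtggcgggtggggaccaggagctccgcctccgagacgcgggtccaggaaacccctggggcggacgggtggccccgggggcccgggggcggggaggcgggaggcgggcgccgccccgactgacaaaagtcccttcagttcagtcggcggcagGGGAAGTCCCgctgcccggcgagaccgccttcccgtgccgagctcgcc
Nfkbia (chr12:55492598-55492897, minus strand): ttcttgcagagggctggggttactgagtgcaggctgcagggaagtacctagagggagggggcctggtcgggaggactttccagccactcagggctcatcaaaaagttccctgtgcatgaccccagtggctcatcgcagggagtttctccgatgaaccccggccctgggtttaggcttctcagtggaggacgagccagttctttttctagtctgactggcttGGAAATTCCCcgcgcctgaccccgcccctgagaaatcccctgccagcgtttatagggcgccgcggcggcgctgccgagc
Nfkb2, first window (chr19:46304487-46304786, plus strand): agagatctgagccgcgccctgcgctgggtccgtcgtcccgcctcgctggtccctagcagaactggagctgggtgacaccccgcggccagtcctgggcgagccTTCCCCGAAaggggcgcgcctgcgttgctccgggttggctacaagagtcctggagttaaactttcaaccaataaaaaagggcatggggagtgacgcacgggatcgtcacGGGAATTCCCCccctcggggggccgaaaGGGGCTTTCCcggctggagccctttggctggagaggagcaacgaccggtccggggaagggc
In Bcl3 the kappaB match lay just after the start, at bases 3 to 12 of the transcript, and no STAT match was in the window. In Nfkbia the kappaB match lay 29 to 20 bases upstream of the start, again with no STAT match. In Nfkb2 the window held a STAT match 148 to 140 bases upstream, a pair of overlapping kappaB matches 39 to 29 bases upstream and another 11 to 2 bases upstream. Further kappaB matches were in the windows of Nfkbie (106 to 97 bases upstream) and Rel (92 to 82 bases upstream, overlapping) and in the other 2 windows of Nfkb2, while the windows of Nfkbib and Rela held neither motif. A match describes letters in this window only.

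The arrays detected between 15257 and 19256 of 45281 probes each. Il6st, the gene that Cre removes, averaged 5.56, 5.54, 5.20, 5.45 and 5.57 in gp130- hepatocytes at the 5 times and 6.27, 6.42, 6.78, 6.37 and 6.36 in gp130flox hepatocytes (exact two-sided permutation p = 0.00233, 0.0173, 0.00216, 0.00126 and 0.00758). By the calling rule used here Il6st passed limma's test at 2 of the 5 times, and the ranges of the genotypes overlapped at 0, 1 and 12 h. No source used here says where the Il6st probe lies relative to the deleted stretch. Arrays of 1 genotype share numbers in the deposited table, and those alike in both are termed a preparation (6 gp130- and 7 gp130flox), since the sources do not say what a number stands for. Preparations 6 to 11 (3 gp130- and 5 gp130flox, 36 arrays) differed widely from preparations 1 to 4 (3 gp130- and 2 gp130flox, 25 arrays): 33% of all probes were called between them. The summed signal of 14 hepatocyte markers ranged from 57800 to 98700 in preparations 6 to 11 and from 8600 to 26600 in preparations 1 to 4, and Alb was detected on 35 of 36 arrays and on 1 of 25. The brightest markers weigh most in this sum, and not every marker followed it. Apob and Hnf4a went the other way, with mean levels of 8.71 and 7.96 in preparations 6 to 11 and 10.25 and 8.83 in preparations 1 to 4. Genotype values are therefore also given within each set of preparations or with the set as a term in the model. The gp130flox 3 h array of preparation 1 stood apart, with a median correlation of 0.618 with the other arrays of its preparation, against at least 0.877 for the other arrays numbered 1 to 4. Xist, a transcript of female cells, averaged 8.86 and 8.26 in gp130- preparations 2 and 3 and at most 4.25 in each other preparation.

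Nfkbiz and Bcl3 were the members that differed between the genotypes. In gp130- hepatocytes both transcripts lay below their gp130flox level at 1, 3, 6 and 12 h, Nfkbiz by 3.16- to 3.72-fold and Bcl3 by 2.81- to 4.43-fold. Neither passed the test before IL-6 was added, when the mean of Nfkbiz was 2.04-fold lower and both had an unadjusted p under 0.05. The other 9 probes of 7 genes passed the test at no time.

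Nfkbiz in gp130- hepatocytes had a lowest, median and highest level of 6.99, 7.42 and 8.43 before IL-6, of 6.86, 7.79 and 8.78 after 1 h and of 7.02, 7.61 and 8.32 after 12 h. The groups of 5 gp130- arrays gave 7.43, 8.13, 8.98, 7.64 and 6.45 after 3 h (preparations 2, 3, 4, 6 and 9), and preparations 2, 3, 4, 6 and 7 gave 7.71, 7.99, 8.24, 7.62 and 7.44 after 6 h. In gp130flox hepatocytes the lowest levels in time order were 8.21, 9.19, 9.10, 9.27 and 9.30, the medians 8.56, 9.33, 9.40, 9.43 and 9.37, and the highest levels 8.81, 9.85, 10.16, 9.73 and 9.90. Before IL-6 the groups overlapped through 1 gp130- array, that of preparation 4, and from 1 h on all 22 gp130- arrays lay below all 26 gp130flox arrays. The same separation over 1 to 12 h was found for 0.0665% of all probes. The differences were -1.66, -1.79, -1.69 and -1.90 at 1, 3, 6 and 12 h (SE 0.25 to 0.27, limma adjusted p = 3.61e-05, 1.96e-05, 2.49e-05 and 5.89e-07), where 0.292%, 0.553%, 0.681% and 0.522% of all probes were called lower. At 0 h the difference was -1.03 (SE 0.25, limma adjusted p = 0.0503), with 0.128% of all probes called lower. When the model held a term for the set, the 0 h difference was -1.14 and passed the test (limma adjusted p = 0.000216, 0.491% of probes called lower), while within preparations 1 to 4 it was -0.59 (limma adjusted p = 0.88).

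**Figure D1:**
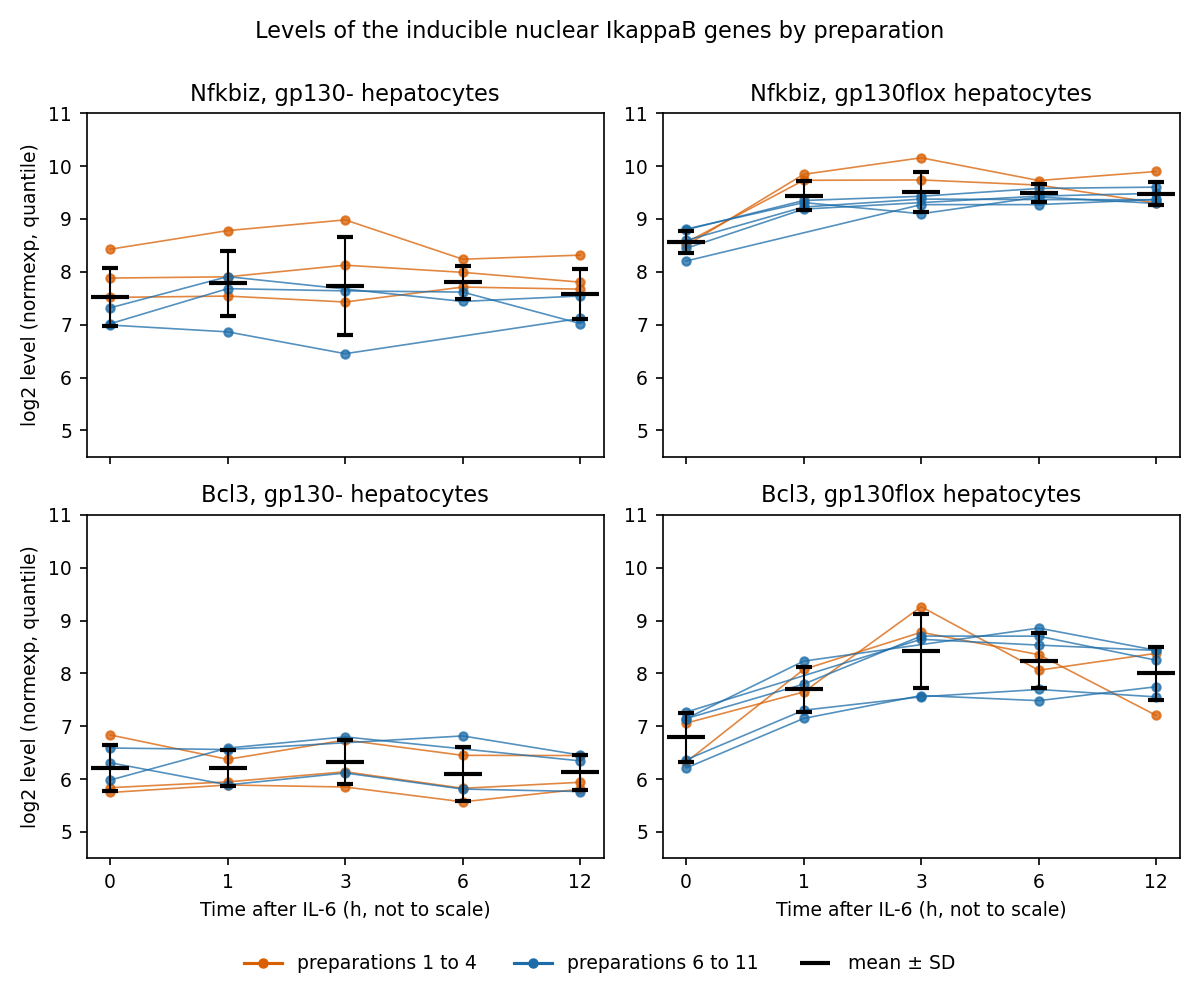
Log2 levels (vertical axis) of Nfkbiz and Bcl3 on every array at 0, 1, 3, 6 and 12 h after IL-6 (horizontal axis), gp130- in the left panels and gp130flox in the right; lines join the arrays of a preparation, coloured by set, and black bars are group means with SD. From 1 h on the gp130- points end at 8.98 for Nfkbiz and 6.82 for Bcl3, below the lowest gp130flox points of 9.10 and 7.15.

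Bcl3 in gp130- hepatocytes had levels of a narrower range. Its lowest, median and highest levels there were 5.75, 6.15 and 6.84 before IL-6, then 5.89, 6.16 and 6.59 after 1 h and 5.76, 6.14 and 6.45 after 12 h. In the order of preparations used for Nfkbiz, the 5 gp130- arrays had 5.85, 6.74, 6.14, 6.12 and 6.80 after 3 h, and those of 6 h had 5.57, 6.45, 5.83, 5.81 and 6.82. In gp130flox hepatocytes the lowest levels were 6.21, 7.15, 7.56, 7.48 and 7.20 in time order, the medians 7.06, 7.72, 8.68, 8.36 and 8.25, and the highest levels 7.27, 8.23, 9.26, 8.86 and 8.44. The genotypes overlapped at 0 h and were apart at each later time, as they were for 0.266%, 0.655%, 0.568% and 0.399% of all probes with gp130- below at 1, 3, 6 and 12 h. The differences were -0.57, -1.49, -2.09, -2.15 and -1.88 at the 5 times (SE 0.26 to 0.28), with limma adjusted p = 0.929 at 0 h and 0.000853, 1.7e-06, 3.51e-07 and 2.7e-06 after IL-6. Bcl3 and Nfkbiz were each among the 0.179% of probes that were lower in gp130- hepatocytes at all 4 times after IL-6.

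Within the sets of preparations both genes kept the direction of the difference at every time. In preparations 6 to 11 the Nfkbiz differences were -1.46, -1.78, -2.25, -1.89 and -2.20 at 0, 1, 3, 6 and 12 h, all of them called, and those of Bcl3 were -0.53, -1.27, -1.67, -1.94 and -1.90, called from 1 h on. The shares of all probes called lower in that set were 1.51%, 1.87%, 2.94%, 3.87% and 3.65% at the 5 times. In preparations 1 to 4, with 3 against 2 arrays at each time, Nfkbiz differed by -1.71, -1.77, -1.71 and -1.67 after IL-6, of which the 3 h value was called (limma adjusted p = 0.0964, 0.0248, 0.0597 and 0.0773). Bcl3 differed there by -1.79, -2.78, -2.26 and -1.73, called at 3 and 6 h (limma adjusted p = 0.0801, 0.000994, 0.00866 and 0.0658), against 1.34% and 0.374% of probes called lower. At 1 and 12 h the share called lower in this set was 0.159% and 0.271%. Of the 2 gp130flox arrays behind the 3 h values of both genes, 1 is the array that stood apart. The summed signal of 10 markers of Kupffer cells and other macrophages, which also express these genes, ranged from 324 to 4590 on gp130- arrays and from 572 to 5630 on gp130flox arrays. Its part in the genotype differences was not tested. In cultures of this kind, fewer cells of a type and less RNA per cell cannot be told apart. In the set 1 to 4, Xist was high in gp130- preparations 2 and 3 but not in gp130- preparation 4 or either gp130flox preparation. Preparation means of gp130- 2, 3 and 4 were 7.57, 7.94 and 8.55 for Nfkbiz and 5.77, 6.57 and 5.94 for Bcl3. Those of gp130flox 1 and 2 were 9.63 and 9.39, and 8.08 and 7.75. The part of sex in these differences was not tested.

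**Figure D2:**
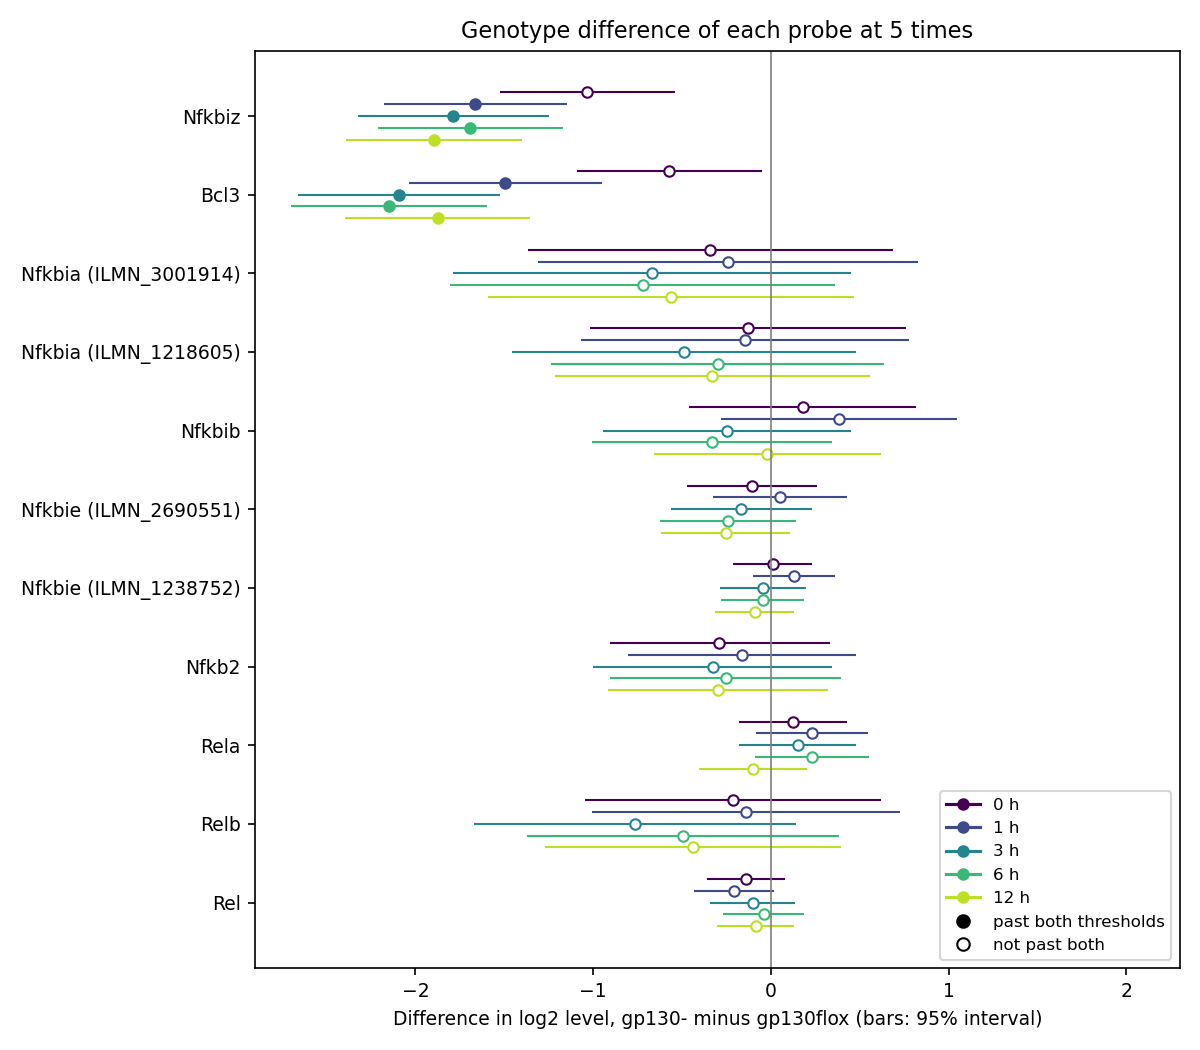
Difference gp130- minus gp130flox on the log2 scale (horizontal axis) for each of the 11 member probes at the 5 times (colours); bars are 95% intervals and filled points passed both thresholds. Nfkbiz and Bcl3 lie between -0.57 and -2.15, and the other 9 probes between -0.76 and 0.38 with intervals that all reach across 0.

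After IL-6, 0 of the 11 member probes passed the test at any time in gp130- hepatocytes, where 1 value, that of Nfkbib at 1 h, had an unadjusted p under 0.05. In gp130flox hepatocytes Nfkbiz and Bcl3 were also the members that changed. Both rose within 1 h and were still higher at 12 h, Nfkbiz by 1.80- to 1.92-fold and Bcl3 by 1.96- to 3.28-fold. Bcl3 was called higher at 3 h than at 1 h, in a comparison that includes the 3 h array that stood apart.

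With the preparation as a block, the changes in gp130- hepatocytes were 0.25, 0.18, 0.12 and 0.05 for Nfkbiz and -0.01, 0.20, -0.09 and -0.09 for Bcl3 at 1, 3, 6 and 12 h (limma adjusted p at least 0.757). In these cells 0%, 0.0358%, 0% and 0% of all probes were called in either direction. Past the fold threshold and an unadjusted p under 0.05 were 4, 58, 29 and 13 probes.

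Nfkbiz in gp130flox hepatocytes rose by 0.85, 0.94, 0.93 and 0.92 at 1, 3, 6 and 12 h, or 1.80- to 1.92-fold (SE 0.12 at 1 h, limma adjusted p = 3.6e-05, 1.16e-06, 9.11e-07 and 1.13e-06). The background shares of probes called higher were 0.179%, 0.471%, 0.44% and 0.466%. The level exceeded that at 0 h in each preparation with both arrays, 6 of 6, 6 of 6, 7 of 7 and 7 of 7, by between 0.29 and 1.66. At every time after IL-6 the lowest gp130flox level of Nfkbiz, 9.10, was above the highest at 0 h, 8.81, a separation that 0.0461%, 0.107%, 0.0819% and 0.0461% of probes had at 1, 3, 6 and 12 h. Between 1 and 3 h Nfkbiz differed by 0.09 (limma adjusted p = 0.858).

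Bcl3 in gp130flox hepatocytes rose by 0.97, 1.71, 1.46 and 1.21 at the 4 times, or 1.96-, 3.28-, 2.74- and 2.32-fold (SE 0.15 at 1 h, limma adjusted p = 4.96e-05, 1.47e-11, 7.16e-10 and 8.16e-08). The rise was present in all preparations with both arrays, between 0.59 and 2.46. The 3 h level was above that at 1 h by 0.74 (limma adjusted p = 0.0233, 0.0614% of probes higher), and the 12 h level differed from that at 3 h by -0.50 (limma adjusted p = 0.128). The 3 h array of preparation 1 is the one that stood apart, and no fit of these comparisons without it is given. Bcl3 changed there by 0.59 at 1 h and 2.20 at 3 h. The same changes were 1.76 and 2.46 in preparation 2, 0.94 and 1.37 in 7, 0.94 and 1.19 in 8, and 0.65 and 1.56 in 9. The Bcl3 changes were 0.89, 1.41, 1.43 and 1.26 in the set 6 to 11 alone and 1.17, 2.33, 1.52 and 1.10 in the set 1 to 4 alone. Those of Nfkbiz were 0.66, 0.72, 0.84 and 0.85 in the set 6 to 11 and 1.26, 1.42, 1.16 and 1.07 in the set 1 to 4, so that its rise at 1 and 3 h was unequal in the sets, a difference that was not tested. Without the preparation as a block, the Nfkbiz changes missed the threshold at all 4 times (limma adjusted p = 1, 0.216, 0.341 and 0.296) and that of Bcl3 at 1 h (limma adjusted p = 1).

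The Bcl3 change in gp130- minus that in gp130flox hepatocytes was -0.98, -1.51, -1.54 and -1.30, past the threshold at 3, 6 and 12 h (limma adjusted p = 0.0603, 5.1e-05, 2.95e-05 and 0.000428). For Nfkbiz it was -0.59, -0.76, -0.82 and -0.86, past the threshold at 6 and 12 h (limma adjusted p = 0.656, 0.0629, 0.0334 and 0.019). In neither set alone did Nfkbiz pass this comparison: it had -0.29, -0.65, -0.62 and -0.74 in preparations 6 to 11 (limma adjusted p = 1, 0.548, 0.384 and 0.256) and -1.13, -1.19, -1.12 and -1.09 in preparations 1 to 4 (limma adjusted p = 0.729, 0.0701, 0.296 and 1). Bcl3 passed it at 6 and 12 h in the set 6 to 11 (limma adjusted p = 0.00563 and 0.00151) and at 3 h in the set 1 to 4 (limma adjusted p = 0.00886). The last of these values includes the gp130flox 3 h array that stood apart. Without the preparation as a block neither gene passed at any time. The background shares of probes lower in this comparison were 0.0307%, 0.205%, 0.0921% and 0.138%. The Nfkbiz call at 6 h was lost on leaving out any of gp130- preparations 2, 3, 4 or 7 or gp130flox preparations 2, 8, 10 or 11, with values of -0.74 to -0.85. The Nfkbiz call at 12 h was lost without gp130- preparation 3 or gp130flox preparation 10 or 11, with values of -0.82 to -0.84. Over the 4 times together, limma's F-test of the difference of changes gave adjusted p = 1.51e-05 for Bcl3 and 0.024 for Nfkbiz, with 0.276% of probes past it. Nfkbiz and Bcl3 were 2 of 7 probes in all (0.0358%) that were both lower in gp130- hepatocytes at each time from 1 to 12 h and higher than at 0 h in gp130flox hepatocytes at each time.

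**Figure D3:**
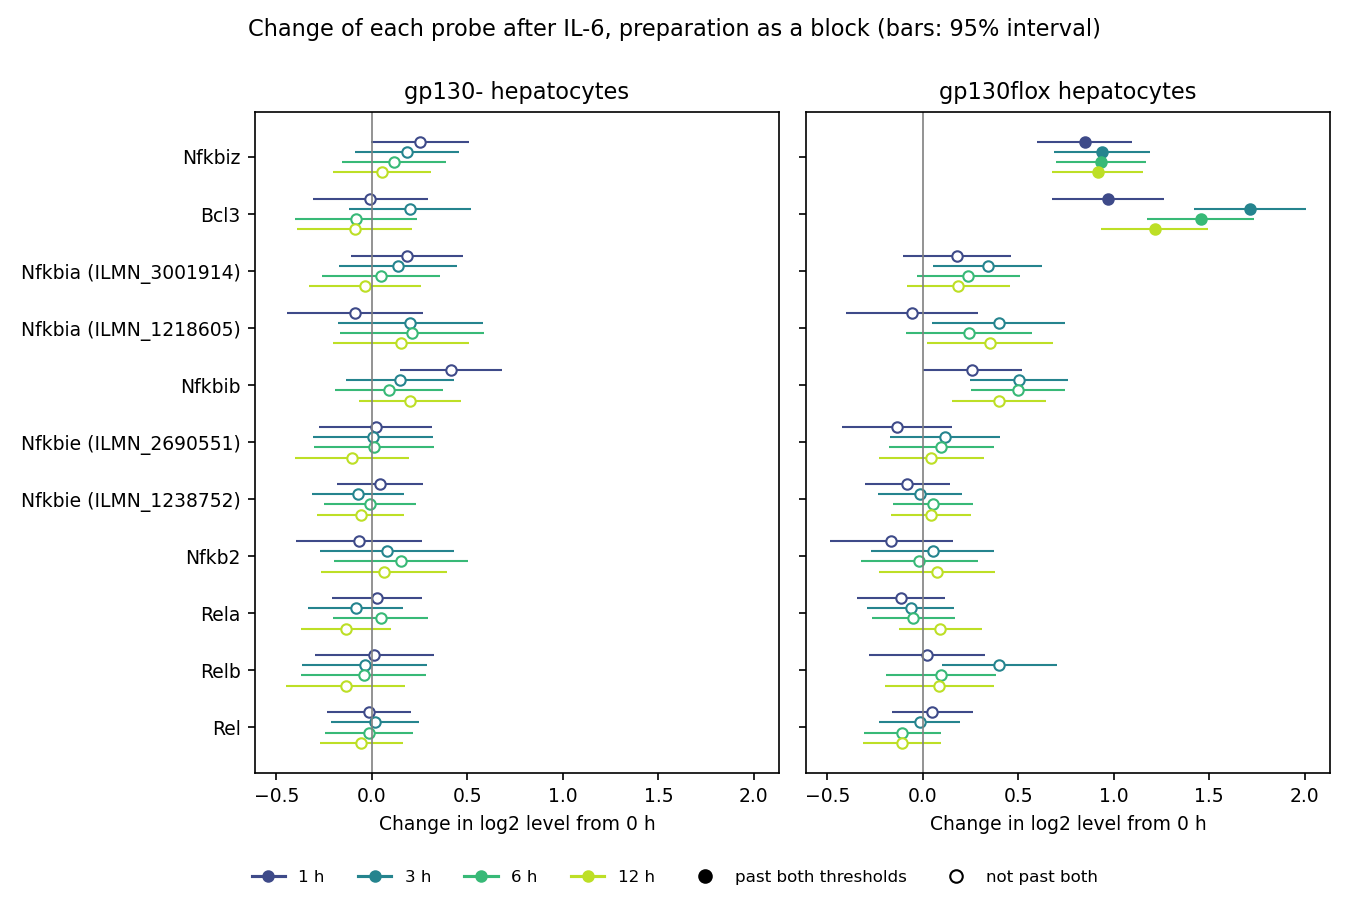
Change from 0 h on the log2 scale (horizontal axis) at 1, 3, 6 and 12 h after IL-6 (colours) for the 11 member probes, gp130- in the left panel and gp130flox in the right; points are fitted changes with the preparation as a block, bars their 95% intervals, and filled points passed both thresholds. In gp130- hepatocytes both nuclear IkappaB genes lie between -0.09 and 0.25, while in gp130flox hepatocytes Nfkbiz lies between 0.85 and 0.94. The largest Bcl3 change there is 1.71 at 3 h, and neither 6 h nor 12 h was called different from 3 h.

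Nfkbia, Nfkbib and Nfkbie encode IkappaB-alpha, IkappaB-beta and IkappaB-epsilon, the cytoplasmic inhibitors. Nfkbia is itself a textbook NF-kappaB target whose resynthesis ends the response. Its brighter probe had a lowest, median and highest level of 6.12, 7.82 and 9.19 on all gp130- arrays and 6.96, 8.72 and 9.21 on all gp130flox arrays, so that the genotypes overlapped over most of the range. Its differences were -0.34, -0.24, -0.67, -0.72 and -0.56 at the 5 times, with an interval that reached -1.80 at 6 h (limma adjusted p at least 0.747). The dimmer Nfkbia probe had differences of -0.13, -0.15, -0.49, -0.30 and -0.33. After IL-6 in gp130flox hepatocytes the probes were at 0.34 and 0.40 relative to 0 h at 3 h (limma adjusted p = 0.29 and 0.324), so neither passed the test.

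Nfkbib averaged 5.25 on gp130- arrays and 5.25 on gp130flox arrays over all times. In gp130- hepatocytes its change at 1 h was 0.41, positive in 6 of 6 preparations (limma adjusted p = 1, unadjusted p = 0.003). In gp130flox hepatocytes its changes were 0.26, 0.50, 0.50 and 0.40, under the fold threshold, with limma adjusted p = 0.631, 0.0329, 0.0193 and 0.0797. Its level there exceeded that at 0 h in 3 of 6, 6 of 6, 7 of 7 and 6 of 7 preparations. Limma's F-test over the 4 times in gp130flox hepatocytes gave adjusted p = 0.0352 for Nfkbib, a test that 2.65% of all probes passed, and its change in gp130- minus that in gp130flox hepatocytes did not pass this test (limma adjusted p = 0.511).

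The genotype difference of Nfkbib at 1 h was unequal in the sets of preparations, which was not tested. Over all times, the gp130- preparation means in the set 6 to 11 were 5.81 to 5.95 and the gp130flox means 5.39 to 5.60. In preparations 6 to 11 the 3 gp130- arrays had 6.39, 6.16 and 6.34 at 1 h, against 5.37, 5.43, 5.34 and 5.25 on the 4 gp130flox arrays. These groups were apart, as they were with gp130- above for 7.26% of all probes, and the difference of 0.95 was called (SE 0.19, limma adjusted p = 0.00154) among 2.63% of probes called higher. In preparations 1 to 4 the difference at 1 h was 0.01 (limma adjusted p = 0.998), with mean levels of 4.76 on the gp130- arrays and 4.75 on the gp130flox arrays. Preparation means of Nfkbib in that set were low, 4.52 to 4.88, which limits what could have been seen there. With the set as a term, the 1 h difference was 0.55 (limma adjusted p = 0.0259), under the fold threshold, and over all arrays it was 0.38 (limma adjusted p = 0.999).

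**Figure D4:**
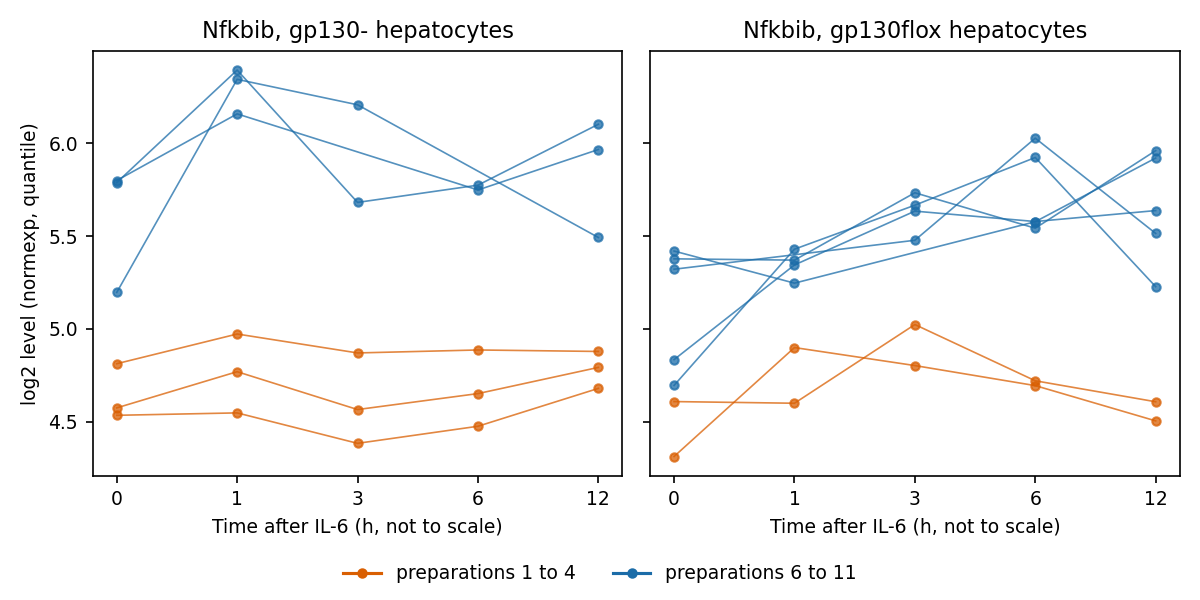
Log2 level of Nfkbib (vertical axis) at 0, 1, 3, 6 and 12 h after IL-6 (horizontal axis) on every array, gp130- in the left panel and gp130flox in the right; lines join the arrays of a preparation, and colours mark the sets 1 to 4 and 6 to 11. At 1 h the gp130- arrays of preparations 6 to 11 lie between 6.16 and 6.39 and the gp130flox arrays of that set between 5.25 and 5.43, while in preparations 1 to 4 they reach 4.97 and 4.90.

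Nfkbie was measured by a probe detected on 59 arrays and another detected on 11. The brighter probe ranged from 4.46 to 5.70 in gp130- hepatocytes and from 4.75 to 5.92 in gp130flox hepatocytes. Neither probe passed the test in any comparison, and for the dimmer probe levels near background limit what could have been seen.

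Among the subunits, Rela encodes p65, which carries the transactivation domain of the classical dimer. Its level lay between 10.25 and 11.22 on gp130- arrays and between 10.04 and 11.11 on gp130flox arrays, and the group means lay between 10.61 and 10.80 in gp130- and between 10.54 and 10.71 in gp130flox hepatocytes. Its differences between the genotypes were -0.10 to 0.23, with standard errors of 0.151 to 0.165. Nfkb2 encodes p100, the precursor of p52, and Relb its usual partner in the alternative pathway. Nfkb2 had a median of 5.80 on gp130- arrays and 6.30 on gp130flox arrays, and differences between -0.33 and -0.16. Relb had medians of 5.84 and 6.76 in gp130- and gp130flox hepatocytes, and its difference at 3 h was -0.76 (95% interval from -1.67, limma adjusted p = 0.683). That value includes the gp130flox array of preparation 1 that stood apart, on which Relb was at 7.48 while the other arrays of the preparation had 5.56 to 5.72. Rel, which encodes c-Rel of lymphoid cells, was detected on 29 of 61 arrays and averaged 4.52 on gp130- arrays and 4.63 on gp130flox arrays.

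Over these 9 probes, the 45 genotype values lay between -0.76 and 0.38 with a smallest limma adjusted p of 0.683, and none had an unadjusted p under 0.05. The 95% intervals reached from -1.80 to 1.05, the first of these for the brighter Nfkbia probe at 6 h and the second for Nfkbib at 1 h. After IL-6 their 36 changes in gp130- hepatocytes lay between -0.14 and 0.41, with a smallest limma adjusted p of 0.816. In gp130flox hepatocytes the changes lay between -0.16 and 0.50, of which 8 had an unadjusted p under 0.05. The median genotype difference over all 11 member probes was -0.14, -0.15, -0.33, -0.30 and -0.30 at the 5 times, beside 0.009 to 0.019 over all probes. Within the sets it was nearer to 0 at most times, with 0.009, 0.033, 0.012, 0.064 and -0.096 in preparations 6 to 11 and -0.10, 0.012, -0.34, -0.045 and -0.05 in preparations 1 to 4. With the set as a term, the values of these 9 probes lay between -0.42 and 0.55, and 0 passed both thresholds.

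The spread of some of these genes followed the sets of preparations more than the genotype. Genotype, entered first in the model, took 71.9% of the sum of squares of Nfkbiz and 63.6% of that of Bcl3. The set of preparations, entered after it, took 7.28% and 0.0321%. The sets are uneven between the genotypes, so all these shares depend on the order of the terms. For Nfkbia, Nfkbib, Relb and Nfkb2 the set took 77.4% and 75.4% (the brighter and dimmer Nfkbia probes), 73.9%, 70.2% and 66.5%. Relative to preparations 1 to 4, levels in preparations 6 to 11 were higher by 1.68 and 1.41 for the Nfkbia probes, 1.30 for Relb, 1.01 for Nfkbib and 0.93 for Nfkb2, each called in a fit with the preparation as a random block (limma adjusted p at most 1.33e-08). The mean of every preparation in 6 to 11 was above that of every preparation in 1 to 4 for these 5 probes, which was so for 15.8% of all probes. The brighter Nfkbia probe, for instance, had preparation means of 8.62 to 9.03 in the set 6 to 11 and of 6.54 to 7.61 in the set 1 to 4. Bcl3 differed by 0.08 between the sets (limma adjusted p = 0.687), Nfkbiz by -0.53 (limma adjusted p = 0.000179, under the fold threshold) and Rela by -0.22.

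**Figure D5:**
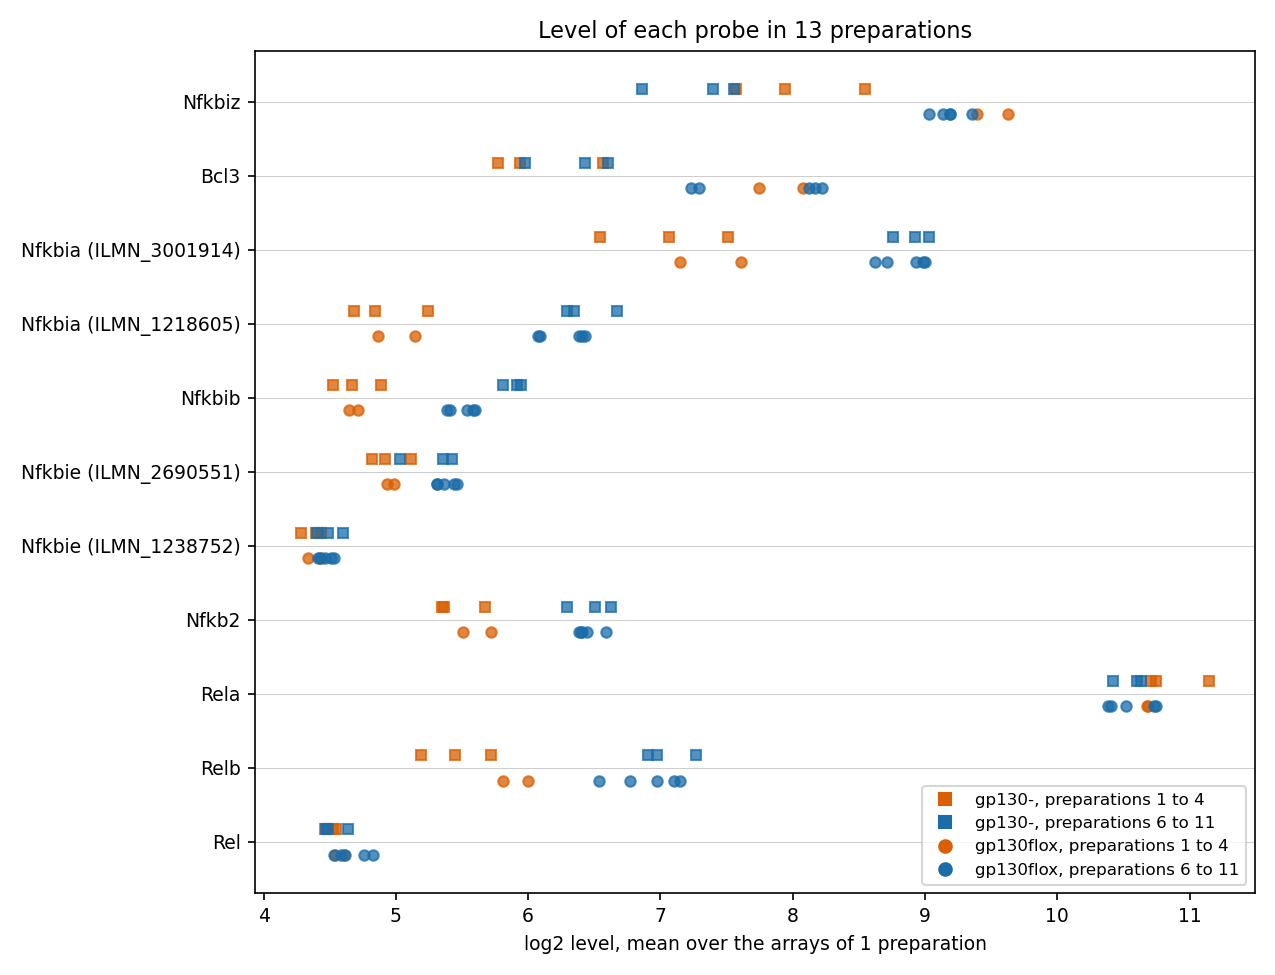
Mean log2 level over the arrays (horizontal axis) of each of the 13 preparations for the member probes, with gp130- as squares above gp130flox as circles and the sets 1 to 4 and 6 to 11 in different colours. The genotypes part for Nfkbiz and Bcl3, and the sets part for Nfkbia, Nfkbib, Relb and Nfkb2, such as 8.62 to 9.03 in the set 6 to 11 against 6.54 to 7.61 in the set 1 to 4 for the brighter Nfkbia probe.

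Markers of other liver cells differed between the same sets, in either direction. The summed signal of the macrophage markers was 2670 to 5630 in preparations 6 to 11 and 324 to 4160 in preparations 1 to 4, with Clec4f, the defining marker of Kupffer cells, detected on 36 of 36 and 16 of 25 arrays. The sum of 8 endothelial markers was 452 to 1190 in preparations 6 to 11 and 29.9 to 177 in preparations 1 to 4. The sum of 9 stellate cell and fibroblast markers went the other way, with 110 to 224 in preparations 6 to 11 and 293 to 2780 in preparations 1 to 4, as did the median sum of 4 cholangiocyte markers, 1120 and 1830 in the same order. Acta2 was the brightest of the 9 stellate cell and fibroblast markers, with mean levels of 6.66 and 9.59 in that order. Reln was opposed, with 5.632 and 5.055, Des had 4.899 and 4.947, and Lrat and Pdgfrb were detected on 0 arrays. The part of any of these cells in the levels of Nfkbia, Nfkbib, Relb and Nfkb2 was not tested. The sum of 9 leukocyte markers was 712 to 1400 in preparations 6 to 11 and 111 to 1200 in preparations 1 to 4. Of these markers, Coro1a and Laptm5, which macrophages also express, were detected on every array, and Ptprc, the common leukocyte antigen, on 3 of 36 and on 5 of 25 arrays.

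Other genes of the pathway were taken from lists, with the brightest probe for each gene. Over all 12157 genes counted in this way, 0.132%, 0.337%, 0.617%, 0.806% and 0.642% were called lower in gp130- hepatocytes at the 5 times, and 0.502%, 0.995%, 2.37%, 2.61% and 2.05% with the set of preparations in the model. Of 29 symbols of IkappaB kinase and the steps above it, 22 were tested, and the genes lower in gp130- hepatocytes numbered 1, 1, 2, 2 and 2 at the 5 times with 0 higher. These were Irak3, a brake on Toll-like receptor signaling (-1.24 at 3 h, SE 0.23, limma adjusted p = 0.000762), and Tirap, an adaptor of these receptors (-0.77 at 3 h, SE 0.16, limma adjusted p = 0.00509). The list's calls were the same genes at the same times with the set in the model. The call of Irak3 at 0 h was lost on leaving out any of 10 preparations, and that of Tirap at 1 h without gp130- preparation 4 or gp130flox preparation 9 or 11. After IL-6 the list had 0 calls in either genotype, and Irak3 had a change of 0.49 at 12 h in gp130flox hepatocytes (limma adjusted p = 0.0875). The list's median difference at 3 h was -0.10, beside 0.01 for all genes, and -0.20 beside 0.006 with the set in the model.

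Of 28 other brakes and cofactors of NF-kappaB, 24 were tested, and 0, 0, 1, 2 and 1 were lower in gp130- hepatocytes with 0 higher. With the set in the model these counts were 0, 1, 3, 3 and 2, again with 0 higher. Rnf11, part of the A20 ubiquitin-editing complex, was lower at 3, 6 and 12 h (-0.70 at 3 h, limma adjusted p = 0.0397), calls that were lost on leaving out any of 10, 6 and 7 of the 13 preparations. Tnip2, which binds A20, was lower in gp130- hepatocytes at 6 h (-0.97, limma adjusted p = 0.0183), a call lost without gp130- preparation 3 or 4 or gp130flox preparation 7, 8 or 11, and with the set in the model it was lower at 1, 3 and 6 h (-0.72, -0.71 and -0.76, limma adjusted p at most 0.000527). Tnip2 rose in gp130flox hepatocytes at 3 h by 0.74 (SE 0.11, limma adjusted p = 1e-05), the 1 call of the list after IL-6. Tnfaip3, which encodes A20 itself, had a difference of -0.56 at 3 h (limma adjusted p = 0.727), but with the set in the model it was lower at 3, 6 and 12 h (-0.83, -0.78 and -0.76, limma adjusted p at most 0.00243).

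Of 40 textbook target genes of NF-kappaB, 35 were tested, and 2, 5, 6, 6 and 5 were lower in gp130- hepatocytes at the 5 times with 0 higher. With the set in the model, 2, 8, 10, 9 and 7 were lower, and Tnf, a cytokine, was higher at 1 h (0.61, limma adjusted p = 0.013), where 1.1% of all genes were called higher. Lcn2 and Saa3, acute phase genes, were lower at all 5 times (-4.02 and -4.69 at 3 h), and Icam1, an adhesion molecule, and Cebpb, a transcription factor of the acute phase response, were lower from 1 h on (-1.19 and -1.40 at 3 h). Hamp, which encodes the iron hormone hepcidin, was lower from 1 h on and Ier3 at 3 and 6 h, but leaving out 1 preparation ended the Hamp call at 1 h for 11 of 13 preparations and at 3 h for 7, and that of Ier3 at 6 h for 6. The Cebpb call at 1 h was lost without gp130- preparation 4 or gp130flox preparation 9 or 11. Lcn2, Saa3 and Hamp were named by the study on these samples and are no independent evidence. The same holds for Cxcl1, a chemokine counted as lower from 1 h on with the set in the model. After IL-6 in gp130- hepatocytes Irf1, an interferon regulatory factor, rose at 3 h by 1.22 (SE 0.24, limma adjusted p = 0.0297), the 1 call of this list in these cells, where 0.0329% of all genes were called higher. That call was lost on leaving out any of gp130- preparations 2, 3, 4 or 7 or gp130flox preparations 7, 8, 9 or 11, with values of 0.87 to 1.49 over all 13 preparations left out in turn. In gp130flox hepatocytes 0, 4, 5 and 5 targets rose at 1, 3, 6 and 12 h, among them Cebpb (0.78 at 3 h, limma adjusted p = 6.13e-06) and Icam1 (0.93 at 3 h, limma adjusted p = 0.000318), and Vcam1 fell at 6 and 12 h (by 0.77 at 12 h). The shares of all genes were 0.239%, 0.617%, 0.543% and 0.576% called higher at the 4 times, and 0.165% and 0.255% called lower at 6 and 12 h. Calls at 6 h were lost without gp130flox preparation 9 for Vcam1, without 1 or 9 for Lcn2 and without 7 for Saa3, and that of Hamp at 3 h without 7. The median difference of the list at 3 h was -0.36, beside 0.01 for all genes. With the set in the model it was nearer to zero, at -0.14 beside 0.006. Several of these genes, among them Cebpb, are known to answer STAT3 as well, so the list does not separate the pathways. Of the genes known to need IkappaB-zeta in mouse macrophages, 2 were tested, and Lcn2 was the 1 called.

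The genes whose levels moved most like those of the members were sought over the 33 gp130flox arrays, after subtracting the mean of each preparation, among 12156 other genes. For Nfkbiz these were Socs3, the feedback inhibitor of gp130 signaling (Pearson r = 0.882), Bcl3 (r = 0.879) and Gcnt2 (r = 0.863). For Bcl3 they were Cdc42ep4 (r = 0.903), Noct (r = 0.899) and Cebpb (r = 0.885). For Nfkbib the highest values were lower, 0.748 for Itpkc, 0.722 for Fezf2 and 0.721 for Denn2b. The points share preparations and times, and the values are a description.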

How the data were processed

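Illumina MouseWG-6 v2 arrays were hybridized with RNA of gp130- and gp130flox hepatocytes. The intensities deposited by the authors were read out in GenomeStudio 1.6.0, not normalized and on a linear scale, for 45281 probes. Beside each intensity the authors gave a detection p-value. The authors also deposited intensities after cubic spline normalization (column medians of 39.56 to 39.57), used as an alternative.

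The intensities were corrected for background, raised by an offset of 16, quantile-normalized and log2 transformed with neqc of limma 3.58.1 in R 4.3.3. Probes with 1 annotated gene (34885, against 18 with several and 10378 with none) were tested if their detection p was under 0.05 on 5 arrays or more. Group means for genotype and time were fitted to all 61 arrays, and changes after IL-6 with 13 preparations as fixed blocks, with Benjamini-Hochberg adjustment over all 19543 probes. The block rests on the data: deviations of 114 pairs of arrays of a preparation correlated with a median of 0.843 and a lowest value of 0.232, and within the sets of preparations with a median of 0.372 (91 of 114 over 0.1). The paper reports 5 mice per genotype for the arrays. No source ties an array or a preparation to an animal, so p-values measure the spread between these arrays. The genotype fits of group means, with or without the set as a term, held no preparation block. They treat the 61 arrays as independent although arrays of a preparation are alike, so their p-values may be too small. No more than 0.9929 was reached by the correlation of a pair of arrays in a group, and 0 pairs were identical. Probe symbols are GEO's platform annotation, of which 34807 probes matched RefSeq gene IDs.

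Members and lists were chosen with earlier results of these data known. Nfkbiz and Bcl3 were also among the genes for which the study listed real-time PCR primers. The text names every member, and the 3 genes most like a member that passed the joint test in gp130flox hepatocytes. From a list it names genes with the smallest p or a call in a comparison, and not every called gene. Alternatives were another normalization or offset, no detection filter, the brightest probe, array weights, no fold threshold, other blocks, sets of preparations, the spline-normalized values and leaving out each preparation. Fits without the array that stood apart, and with the set and a random block together, were added after seeing the data, as was leaving out each preparation for the listed genes. On simulated data with 19543 probes, the genotype comparison at 12 h recovered 72% of 2-fold and 94% of 4-fold changes with 5 false calls, and 89% and 98% with 19 false calls with the set as a term. The changes at 3 h recovered 100% of 2-fold changes in either genotype. Beside the preparation effects, the simulated noise was independent between probes and arrays, and no array stood apart. Recovery on the real arrays may therefore be lower, and the simulation does not show that changes in gp130- hepatocytes would have been called.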

Additional observations from a re-analysis of the deposited data

Results flagged for a closer look

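Among 120 groups of arrays of the member and Il6st probes, 4 had an array far from the others, where chance gives about 1 in 20. Nfkbia (brighter probe) was at 7.27 on the gp130flox 3 h array of preparation 2, against 8.52 to 9.21 on the other 5 arrays. That array belongs to the set 1 to 4, in which Nfkbia was low throughout, and the other array of this set at 3 h is the one that stood apart. Nfkbie (dimmer probe) was at 4.98 on the gp130- 6 h array of preparation 6, against 4.26 to 4.41. Rel was at 4.24 on the gp130- 3 h array of preparation 4 (others 4.56 to 4.66) and at 4.40 on the gp130- 6 h array of preparation 6 (others 4.55 to 4.58), and on neither was it detected.

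The change after IL-6 differed between the genotypes by a test of the difference itself for both nuclear IkappaB genes. The change in gp130- minus that in gp130flox hepatocytes was -0.82 at 6 h and -0.86 at 12 h for Nfkbiz, and -1.51, -1.54 and -1.30 at 3, 6 and 12 h for Bcl3. For Nfkbiz the call was lost within each set of preparations (limma adjusted p = 0.256 to 1 at 6 and 12 h), without the replicate block and on leaving out any of several preparations. For Bcl3 it was also lost without the block, and it was present at 6 and 12 h in preparations 6 to 11 and at 3 h in preparations 1 to 4.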

How the results depend on the processing

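In the genotype difference, the gp130flox change and the difference of the changes, Nfkbiz and Bcl3 kept their direction under all 18 alternatives and with each of 13 preparations left out. Of these 688 values, 625 stayed on their side of the threshold, 42 lost the call, 21 gained one and 0 turned. The remaining 4206 values are those of the other members and the changes of Nfkbiz and Bcl3 in gp130- hepatocytes. Of them, 18 gained a call and 326 changed sign, all but these calls within the threshold. For the genotype comparison, array weights raised the member probes called at any time to 7 from 2, while the calls over all probes were 483 to 4079 per time with weights and 35 to 187 without (the weights had medians of 0.46 for gp130- and 1.68 for gp130flox arrays in preparations 6 to 11, and 1.74 and 0.55 in preparations 1 to 4). Leaving out the replicate block lowered the members that changed in gp130flox hepatocytes to 1 and those with a difference of the changes to 0. The count of differences of the changes was 1 with a random replicate block, with arrays 1 to 4 only, with arrays 6 to 11 only and without gp130- preparations 2 and 3, and 1 to 2 with each preparation left out. The Nfkbiz difference at 3 h missed the threshold when only the groups compared were fitted (limma adjusted p = 0.143), and at 0 h it was called under 9 of 28 settings (-1.46 to -0.59, limma adjusted p = 1.14e-05 to 0.88). Il6st passed limma's test at 2 of the 5 times, at 1 time without the detection filter, with an offset of 50, without background correction before quantile normalization, with a random block, either set alone, and without gp130- preparations 2 and 3, at 0 times with only the groups compared, at 4 with the set as a term, with or without a random block, at 5 with array weights, and at 1 to 4 with each preparation left out. Signals near background limit what Rel and the dimmer Nfkbie probe could show.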
